A study of Homo sapiens with 9 samples.

Results

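The nuclear genes of the respiratory chain were taken as the protein-coding nuclear genes of the GENCODE annotation on hg19 whose symbols start with NDUF, SDHA, SDHB, SDHC, SDHD, UQCR, ATP5, or with COX followed by a digit from 4 to 8. There were 102 such genes among 20163, and no measured value was used to choose them. By symbol, 48 belonged to complex I, 8 to complex II, 9 to complex III, 17 to complex IV and 20 to the ATP synthase, with each assembly factor counted under the complex that it helps to build. NDUFA4, which carries a complex I name, is known as a complex IV subunit.

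The respiratory chain of the inner mitochondrial membrane passes electrons from NADH (complex I) and succinate (complex II) through complex III to oxygen at complex IV, and the proton gradient that this builds drives the ATP synthase. The mitochondrial genome encodes only some of the subunits, so that the others come from nuclear genes on many chromosomes. Erythroid precursors depend on mitochondria for heme synthesis as well as for ATP, and lose them as they mature.

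The measurement was CUT&RUN for H3K4me3, the histone H3 lysine 4 trimethylation typical of promoters in use, in which an antibody-guided nuclease releases the marked chromatin for sequencing. All 9 libraries came from HEL cells, an established human erythroleukemia line: 3 from cells with a CRISPR non-targeting control (NTC), and 2 each from cells with a CRISPR knockout (KO) of METTL3, the catalytic subunit of the m6A RNA methyltransferase, of METTL14, its RNA-binding partner, or of WTAP, the adaptor of the complex. The labels do not say whether KO cells were a clone or a mixed population, nor whether the libraries of a group came from separate cultures, so that p-values measure only the spread between these libraries. A gene was called marked in a library when the list held a peak no farther than 1 kb from an annotated start of the gene, and its value was the largest signal among these peaks, in spike-in-calibrated coverage units.

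Over all genes, 9441 to 9655 were marked in the NTC libraries, 6750 and 6978 in METTL3-KO, 2662 and 4264 in METTL14-KO, and 2298 and 2606 in WTAP-KO. The peak lists do not give sequencing depth, and with 2 or 3 libraries per group their number sets the precision. Every list held only peaks between 150 and 2000 bp wide, so that a gene without a listed peak may still carry the mark in a wider domain. Of 10 genes that define HEL or erythroid cells, 7 were marked in all 3 NTC libraries and the other 3 in some. Of 8 genes that define other cell types, 4 (PAX5, COL1A1 and MBP among them) were marked in every NTC library and the other 4 never in NTC. H3K4me3 at a targeted promoter does not test its knockout, and no such test is given here.

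The promoters of 5 members show the range of behaviours described below. Each sequence is the hg19 sequence from 250 bases before to 30 bases after the annotated start, 5′ to 3′ along the gene. Capitals mark matches, on either strand, to GCGCANGCG (the motif of NRF1), CCGGAAG (the motif of ETS factors such as GABPA) or AANATGGCG (the motif of YY1). ATP5PO (chr21:35288079-35288358, minus strand) was marked in all 9 libraries. ATP5PF (chr21:27107186-27107465, minus strand), which shares its promoter with GABPA on the other strand, was marked in the 6 KO libraries and in no NTC library. NDUFS4 (chr5:52856219-52856498, plus strand) was marked in the 3 NTC libraries and in no KO library. COX6A1 (chr12:120875666-120875945, plus strand) is the widely used isoform of a complex IV subunit, and COX6A2 (chr16:31439652-31439931, minus strand) is its muscle isoform, which had no peak in any library.
ATP5PO: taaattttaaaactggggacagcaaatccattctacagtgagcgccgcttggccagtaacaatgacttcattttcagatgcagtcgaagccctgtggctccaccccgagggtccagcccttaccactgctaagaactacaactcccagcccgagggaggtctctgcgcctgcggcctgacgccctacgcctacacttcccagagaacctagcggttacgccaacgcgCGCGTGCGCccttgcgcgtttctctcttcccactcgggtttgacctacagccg
ATP5PF: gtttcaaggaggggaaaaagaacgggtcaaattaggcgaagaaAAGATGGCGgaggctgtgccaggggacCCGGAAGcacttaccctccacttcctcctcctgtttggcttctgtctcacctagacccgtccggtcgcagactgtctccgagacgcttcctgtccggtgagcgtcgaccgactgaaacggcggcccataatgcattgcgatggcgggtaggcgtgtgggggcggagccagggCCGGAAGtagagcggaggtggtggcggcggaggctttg
NDUFS4: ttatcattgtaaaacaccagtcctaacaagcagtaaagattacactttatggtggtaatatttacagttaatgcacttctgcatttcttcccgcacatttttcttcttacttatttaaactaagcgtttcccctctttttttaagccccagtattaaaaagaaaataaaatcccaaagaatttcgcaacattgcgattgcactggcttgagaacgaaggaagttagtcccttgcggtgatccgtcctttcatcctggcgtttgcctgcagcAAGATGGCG
COX6A1: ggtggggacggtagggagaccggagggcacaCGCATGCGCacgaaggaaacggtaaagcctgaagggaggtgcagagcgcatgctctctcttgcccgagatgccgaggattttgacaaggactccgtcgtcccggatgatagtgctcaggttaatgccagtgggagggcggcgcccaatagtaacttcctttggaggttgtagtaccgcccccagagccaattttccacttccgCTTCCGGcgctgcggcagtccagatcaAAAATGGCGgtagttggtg
COX6A2: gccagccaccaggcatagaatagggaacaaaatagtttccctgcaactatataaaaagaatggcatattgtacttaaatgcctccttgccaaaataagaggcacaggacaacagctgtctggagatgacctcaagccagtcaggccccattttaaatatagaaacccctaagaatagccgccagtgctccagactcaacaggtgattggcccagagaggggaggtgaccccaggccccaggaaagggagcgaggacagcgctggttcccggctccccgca

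These 3 motifs belong to factors known to act at nuclear respiratory genes, and they were frequent in the group. At least 1 of them lay in this 280-base window in 59 of the 95 members marked in any library (62.1%), beside 35.7% of the 12478 genes marked in any library and 24.8% of all genes. The NRF1 motif was present in 30.5% of the marked members and 15.2% of all marked genes. The ETS motif was present in 29.5% and 20.0%, and the YY1 motif in 18.9% and 6.0%. In the 18 members marked in KO libraries alone, 11 held a motif (61.1%), and in the 62 marked in all 3 NTC libraries, 41 did (66.1%). The marked members had a median of 21 CG dinucleotides per window, against 25 for all marked genes and 7 for the 7 members without a peak. An annotated protein-coding start on the opposite strand lay within 1 kb in 43 of the 95 marked members (45.3%), beside 25.6% of all marked genes, and a peak there cannot be assigned to either gene.

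Members were marked more often than genes in general in every library. In NTC cells 72, 72 and 67 of the 102 members were marked (65.7% to 70.6%), beside 46.8% to 47.9% of all genes. The METTL3-KO libraries marked 74 and 67 members, as many as the NTC libraries, while they marked 34.6% and 33.5% of all genes. The METTL14-KO libraries marked 46 and 31 members, and the WTAP-KO libraries 26 and 25. The ranges of METTL14-KO and WTAP-KO lay below that of NTC and did not overlap each other. As a mean per group, METTL3-KO marked 100.2% of the NTC number of members, METTL14-KO 54.7% and WTAP-KO 36.3%, where the same ratios over all genes were 71.8%, 36.2% and 25.6%.

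**Figure D1:**
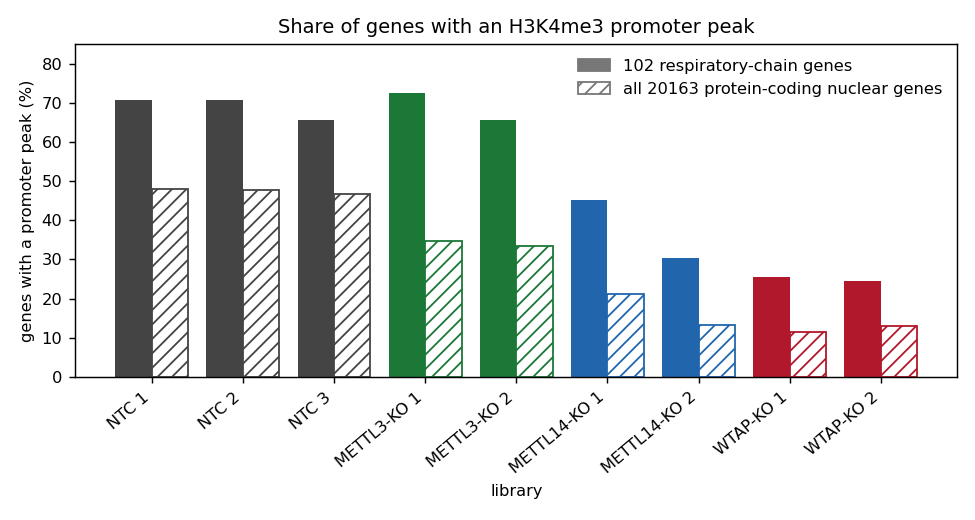
Bars give, for each of the 9 libraries, the percentage of the 102 respiratory-chain genes (filled) and of all 20163 protein-coding nuclear genes (hatched) with an H3K4me3 peak within 1 kb of a start. Members stand above all genes in every library, from 72.5% in METTL3-KO replicate 1 to 24.5% in WTAP-KO replicate 2.

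The equal number in METTL3-KO did not stand for the same genes. Of the 74 members marked in METTL3-KO replicate 1, 44 were marked in all 3 NTC libraries, 12 in 1 or 2 of them and 18 in none. The share without any NTC peak was 24.3% of the marked members of that library and 24.6% of all its marked genes, so that the members were close to the genome in this respect. In WTAP-KO replicate 2 these shares were 44.0% and 40.9%.

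The members fell into 4 classes by where a peak was listed. A peak was present in all 3 NTC libraries at 62 members (60.8%), in 1 or 2 NTC libraries at 15, in KO libraries alone at 18, and in no library at 7. Among genes marked in any library, 65.3% of members and 68.1% of all genes were marked in all 3 NTC libraries, and 18.9% of members and 15.3% of all genes in KO libraries alone. Every complex had members of the first 3 classes, and 5 of the 7 members without a peak were complex IV genes. The read-through genes ATP5MF-PTCD1 and NDUFC2-KCTD14 share the start and the peaks of ATP5MF and NDUFC2, so that 2 of the 62 are no separate promoters.

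**Figure D2:**
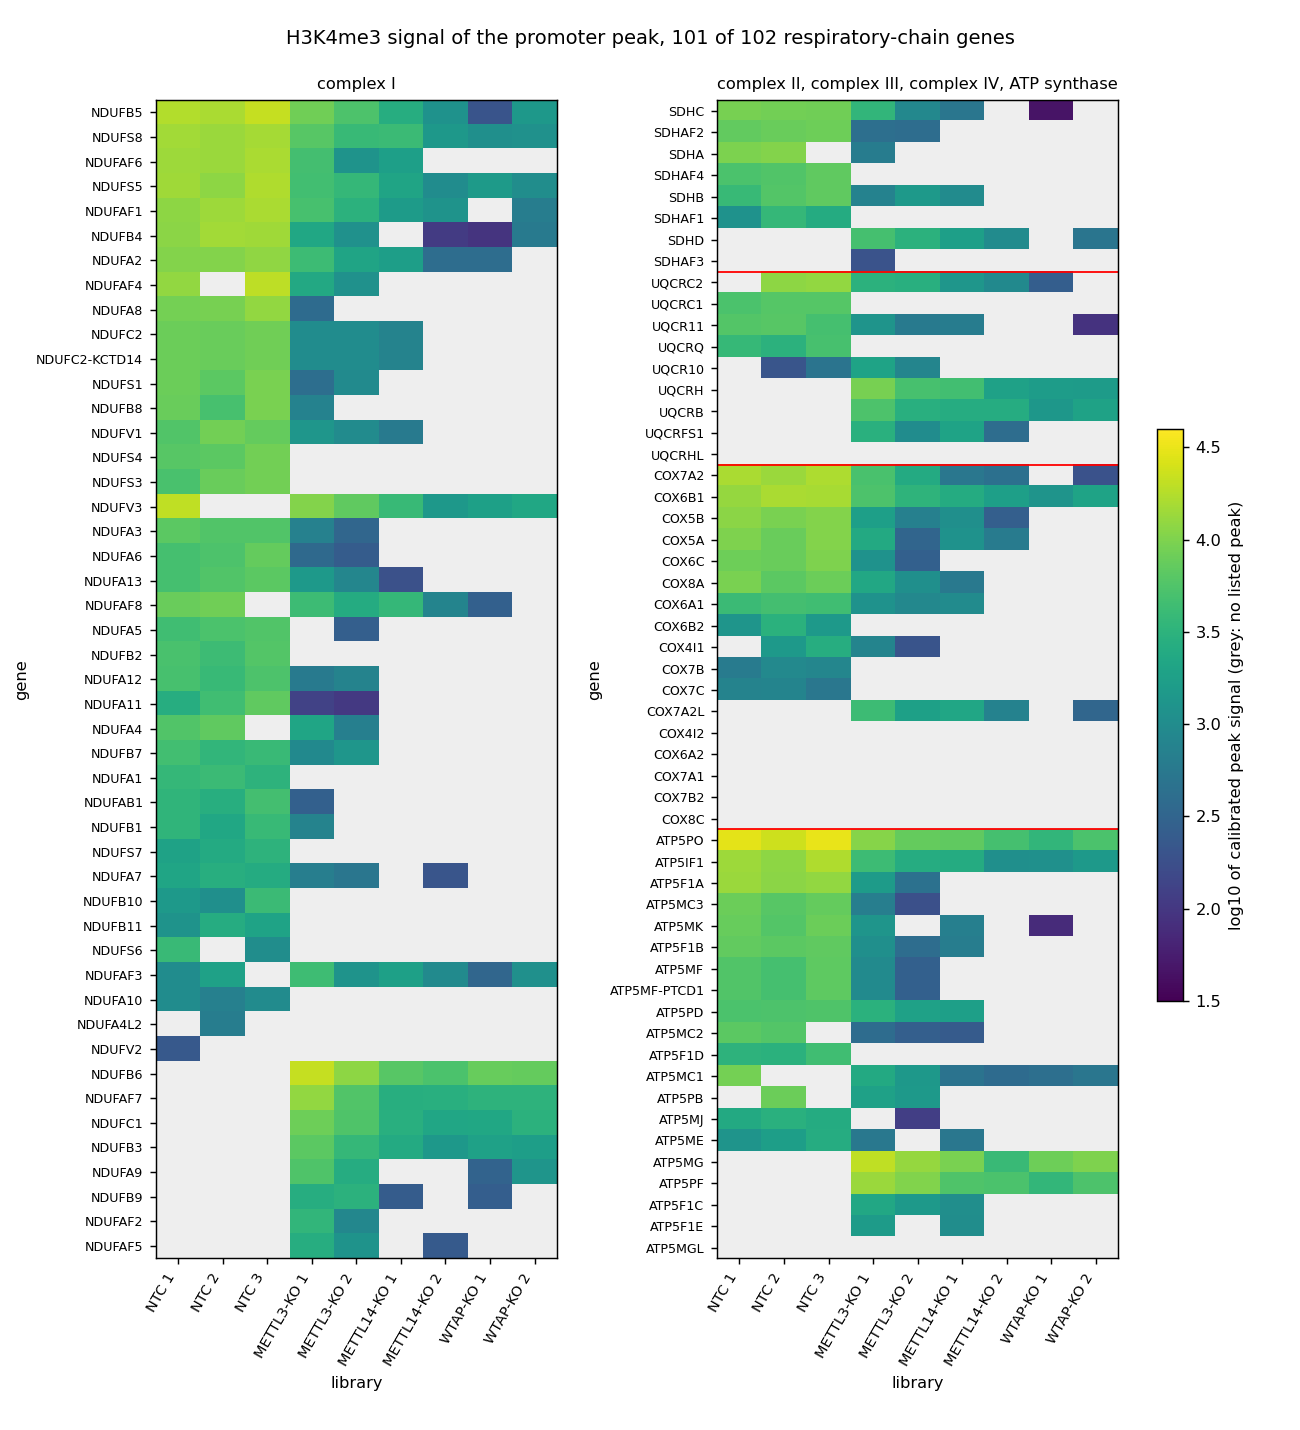
Each row is one of the members shown and each column a library, with colour giving the log10 of the promoter peak signal and grey no listed peak, in blocks by complex separated by red lines. Signals fall from NTC to the KO libraries in most rows, while 18 rows, such as NDUFB6 and ATP5MG, have values in KO libraries alone.

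The 62 members marked in all 3 NTC libraries had higher signals in NTC than in any KO library. At each of them every NTC library lay above every KO library, which was also true of 96.8% of the 8495 such genes. limma on log2(signal + 30.1), fitted to the 12037 genes marked in at least 2 libraries, called 63 of the 92 members tested lower in the KO groups together, with 73.0% of all genes called lower. It called 16 members higher, with 14.3% of all genes called higher. Centred on genes marked in all 9 libraries, the split was 46 lower and 18 higher, with no all-gene share given for this setting. The 63 lower members were the 62 together with NDUFS6, an accessory subunit of complex I. NDUFS6 and 16 of the 62 had no KO peak and entered the fit only through NTC, so that their direction was set by the filter. Members with a peak in a single KO library needed their NTC peaks to enter as well. The 16 higher members had a peak in KO libraries alone, and entered the fit only through them. In this fit a library without a peak is set to the pseudocount, so that the log2 change of a gene listed at 0 in a group depends on it and is no bound on a fold.

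By KO group, the share of tested members called lower was below that of all genes in METTL3-KO and nearer to it in METTL14-KO and WTAP-KO, a difference that was not tested. In METTL3-KO 46 of the 92 were called lower and 17 higher (18.5%), with 60.9% and 14.0% of all genes called in these directions. In METTL14-KO 61 were called lower (66.3%) and 11 higher, with 68.8% and 8.38% of all genes. Centred on genes marked in all 9 libraries, the METTL14-KO split was 36 lower and 13 higher, again without an all-gene share. In WTAP-KO 62 were called lower (67.4%) and 9 higher (9.78%), with 69.7% and 6.81% of all genes. Of the higher calls, 16 in METTL3-KO and all in METTL14-KO and WTAP-KO fell on members marked in KO libraries alone. Such members could not be called lower. The 16 members marked in all 3 NTC libraries without a KO peak could only be called lower, in each group. The median log2 change of the tested members was -2.51 in METTL3-KO, -4.94 in METTL14-KO and -6.30 in WTAP-KO, beside -3.48, -5.57 and -5.97 over all tested genes.

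By complex, for the KO groups together, limma called 33 of 46 tested complex I members lower and 8 higher. It called 5 of 7 complex II members lower and 1 higher, 10 of 12 complex IV members lower and 1 higher, and 12 of 19 ATP synthase members lower and 3 higher. Complex III had 3 lower and 3 higher among 8 tested. The 3 higher were UQCRB, UQCRFS1 and UQCRH, which had no NTC peak. Among the 3 lower, UQCRC1 and UQCRQ had no KO peak, so that the filter set the direction of all of these. In the other complexes too, the higher calls fell on members marked in KO libraries alone. The background for these counts is that of all genes given above, and no difference between complexes was tested.

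A peak in all 9 libraries was found at 7 members, against 665 genes in all. They included NDUFB5, NDUFS5 and NDUFS8 of complex I, COX6B1 of complex IV, and ATP5PO and ATP5IF1 of the ATP synthase. Among these only measured peaks enter, so that the changes do not rest on missing calls. Over the 7 members, the median of the group's mean signal was 29.1% of the NTC mean in METTL3-KO, 12.8% in METTL14-KO and 8.96% in WTAP-KO. The medians over all 665 genes were 29.0%, 13.1% and 8.55%.

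ATP5PO encodes the stalk subunit that links the catalytic head of the ATP synthase to the membrane part, and its promoter was the strongest of the members in NTC cells. Its signal was 30026, 23355 and 31850 in the NTC libraries, 10957 and 7430 in METTL3-KO, 7060 and 4882 in METTL14-KO, and 3461 and 5228 in WTAP-KO. The 3 NTC values lay above all KO values, the METTL3-KO values were the highest of the KO groups, and the METTL14-KO and WTAP-KO values overlapped. limma gave a log2 change of -2.20 ± 0.23 (SE) for the KO groups together, with an adjusted p of 0.0001. Centring on genes marked in all 9 libraries sets their median equal between libraries, and ATP5PO belongs to these genes. After centring it was called higher, with a log2 change of 0.65 and a limma adjusted p of 0.0012. This is a change relative to that median and no rise of its calibrated signal.

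NDUFS8 is a core subunit of complex I, on its electron path. It had signals of 14605, 13740 and 15416 in NTC, 6225 and 3827 in METTL3-KO, 4071 and 1404 in METTL14-KO, and 1116 and 1184 in WTAP-KO. The 3 NTC values lay above all 6 KO values, and METTL3-KO and METTL14-KO overlapped while both WTAP-KO values were the lowest. limma gave a log2 change of -2.60 ± 0.36 (SE) for NDUFS8, with an adjusted p of 0.0005. After centring it was 0.24 (limma adjusted p 0.26), again relative to the median of the genes marked in all 9.

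The accessory subunits NDUFB5 and NDUFS5 of complex I behaved alike. NDUFB5 had 17693, 16290 and 21239 in NTC, 8429 and 5468 in METTL3-KO, 2680 and 1202 in METTL14-KO, and 201 and 1419 in WTAP-KO. NDUFS5 had 14198, 11889 and 16838 in NTC, 4528 and 3721 in METTL3-KO, 2036 and 1027 in METTL14-KO, and 1530 and 1033 in WTAP-KO. Both METTL3-KO values lay between those of NTC and those of the other KO groups at each gene. COX6B1, which joins the monomers of complex IV, had 12930, 16044 and 15670 in NTC, 5372 and 3302 in METTL3-KO, 2575 and 1787 in METTL14-KO, and 1284 and 1963 in WTAP-KO. ATP5IF1, the inhibitor that stops the ATP synthase from running backwards, had 13962, 11681 and 17208 in NTC, 4236 and 2641 in METTL3-KO, 2547 and 1111 in METTL14-KO, and 1130 and 1450 in WTAP-KO. At both genes the NTC values were the highest and the METTL14-KO and WTAP-KO values overlapped.

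**Figure D3:**
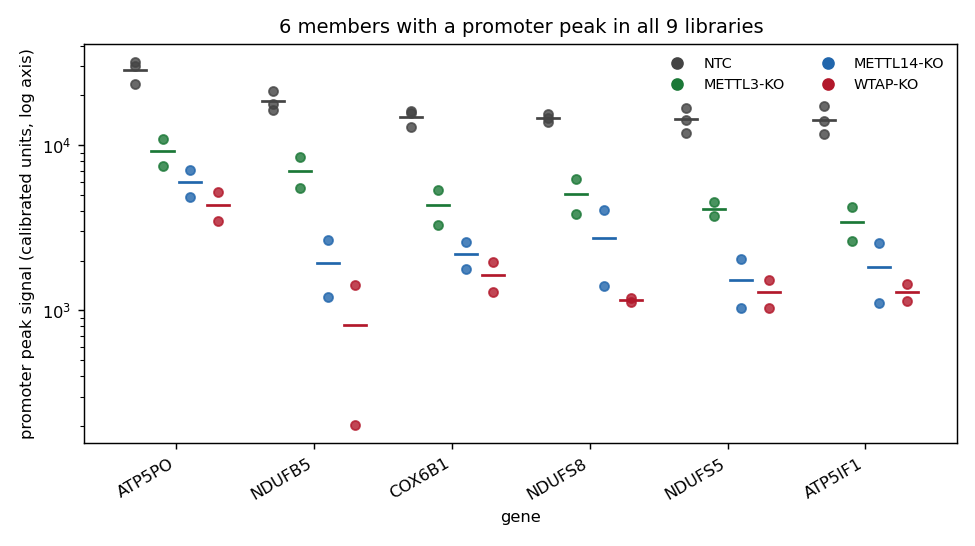
Points are the promoter peak signals of single libraries on a log axis, for 6 of the 7 members with a peak in all 9 libraries, and short lines are group means. NTC points lie above all KO points at each gene, and METTL3-KO means are the highest of the KO means.

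The strongest promoters of the members mostly kept a peak, as did most genes of similar NTC signal. The 10 highest mean NTC signals belonged to ATP5PO, NDUFB5, COX7A2, COX6B1, NDUFS8, NDUFAF6, NDUFS5, ATP5IF1, NDUFAF1 and NDUFB4, from 28410 ± 4472 (SD, n = 3) at ATP5PO to 13621 ± 1871 at NDUFB4. They were the members of the top decile of mean NTC signal over genes marked in all 3 NTC libraries. Of all 850 genes in that decile, the share keeping a peak was 97.6% (METTL3-KO), 80.0% (METTL14-KO) and 67.9% (WTAP-KO). All 10 members kept a peak in METTL3-KO and METTL14-KO and 9 of them in WTAP-KO, a difference from these shares that was not tested. The exception was NDUFAF6, a complex I assembly factor. In 5 of its 6 marked libraries the NDUFAF6 peak lay at a far upstream annotated start, as from -128490 to -126980 bp of the main start in NTC replicate 1. Among the members marked in all 3 NTC libraries, the 5 with the smallest fitted fall were ATP5PO, COX6B1, NDUFS8, NDUFS5 and ATP5IF1, which were among these 10.

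In the same class, the 5 members with the largest fitted fall were NDUFS4, NDUFS3, NDUFA8 (complex I), SDHAF4 (a complex II assembly factor) and UQCRC1 (a core protein of complex III). NDUFS4 had 6271, 6671 and 8784 in the NTC libraries and was listed at 0 in all 6 KO libraries. NDUFS3, SDHAF4 and UQCRC1 were also listed at 0 in every KO library, from mean NTC signals of 7215, 5989 and 5841. NDUFS4 and these genes entered the fit through NTC alone. Their fitted fall is thus set by the NTC signal and the pseudocount, and ranks no measured loss. NDUFA8 had 8910, 9294 and 12527 in NTC and a single KO peak of 380 in METTL3-KO replicate 1. In all, 16 of the 62 members had no KO peak (25.8%), beside 45.8% of the 8495 genes of that class.

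The core subunits of complex I were otherwise lower as well. NDUFS1, which takes part in the NADH-oxidizing arm, had 7986, 6541 and 9468 in NTC and 419 and 970 in METTL3-KO, and was listed at 0 in the other KO libraries. NDUFV1, which binds NADH, had 5736, 8626 and 7434 in NTC, 1333 and 993 in METTL3-KO, 595 and 0 in METTL14-KO, and 0 in WTAP-KO. NDUFS7 had 1937, 2479 and 3156 in NTC and no KO peak. NDUFV2 had a single peak of 232, in NTC replicate 1, which began 1544 bp past its main annotated start, and it did not enter the fit.

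Complex II oxidizes succinate and sits in the citric acid cycle as well. SDHB, its iron-sulfur subunit, had 3897, 5862 and 6906 in NTC, 746 and 1473 in METTL3-KO, 992 and 0 in METTL14-KO, and 0 in WTAP-KO. SDHC, a membrane anchor, had 9312, 8596 and 8403 in NTC, 3424 and 876 in METTL3-KO, 528 and 0 in METTL14-KO, and 45.6 and 0 in WTAP-KO. limma called both lower for the KO groups together, with log2 changes of -4.93 ± 1.07 (SE) and -5.31 ± 1.00 and adjusted p of 0.0046 and 0.0023. Neither call held when libraries were centred on genes marked in all 9, with log2 changes of -2.95 (limma adjusted p 0.068) and -3.07 (0.054). SDHA, the catalytic flavoprotein, had 9860 and 10453 in NTC replicates 1 and 2, no listed peak in NTC replicate 3, and a KO peak of 634 in METTL3-KO replicate 1 alone. Its log2 change of -4.86 ± 2.15 did not pass, with a limma adjusted p of 0.072, and was -7.66 with an adjusted p of 0.0020 without NTC replicate 3. SDHA was also called with the replicate block (-7.66, limma adjusted p 0.0044), with 10 times the pseudocount (-3.14, 0.044) and with only peaks that reached the median NTC signal (-5.60, 0.040). SDHD, the other anchor, ran the opposite way and is described with the members marked in KO libraries alone.

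Among the core proteins of complex III, UQCRC1 lost every peak, as given above. UQCRC2, its partner, had 11816 and 12656 in NTC replicates 2 and 3 and none in replicate 1, 3132 and 2819 in METTL3-KO, 1346 and 939 in METTL14-KO, and 263 and 0 in WTAP-KO. The 2 NTC peaks were 1803 and 1759 bp wide, near the upper limit of the lists, and the KO peaks 341 to 1045 bp. limma gave a log2 change of -1.27 ± 2.14 (SE) for UQCRC2, with an adjusted p of 0.6, and the fit without NTC replicate 1 gave -4.16 with an adjusted p of 0.0076. Without NTC replicate 2 or NTC replicate 3 the sign turned, with log2 changes of 0.16 and 0.20.

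COX5A and COX5B, subunits of complex IV, were called lower for the KO groups together. COX5A had 10038, 7841 and 10579 in NTC, 2404 and 324 in METTL3-KO, 1187 and 616 in METTL14-KO, and 0 in WTAP-KO. COX5B had 11391, 9349 and 10572 in NTC, 1795 and 704 in METTL3-KO, 1115 and 274 in METTL14-KO, and 0 in WTAP-KO. In both genes the KO groups ran in the same order, METTL3-KO and METTL14-KO overlapping and WTAP-KO listed at 0. COX4I1, a regulatory subunit of the complex, had peaks of 1467 and 2720 in NTC replicates 2 and 3 and of 784 and 203 in METTL3-KO. Its log2 change of -2.77 ± 1.47 (SE) had a limma adjusted p of 0.12, and -4.79 with an adjusted p of 0.00053 without NTC replicate 1.

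The catalytic head of the ATP synthase is built from ATP5F1A, ATP5F1B and a central shaft, ATP5F1C. ATP5F1A had 13733, 11447 and 12673 in NTC, 1583 and 449 in METTL3-KO, and 0 in the other KO libraries. In 4 of its 5 marked libraries, the 3 NTC ones among them, this peak lay at an outer annotated start, as from -7235 to -5644 bp of the main start in NTC replicate 1, and only in METTL3-KO replicate 2 near the main start. HAUS1 has an opposite-strand start within 1 kb of a start of ATP5F1A, and a peak there cannot be assigned to either gene. ATP5F1B had 7082, 6623 and 7059 in NTC, 1092 and 403 in METTL3-KO, 656 and 0 in METTL14-KO, and 0 in WTAP-KO. limma gave log2 changes of -7.09 ± 0.40 (SE) and -5.59 ± 0.97, with adjusted p of 4.4e-06 and 0.0015. ATP5F1C had no NTC peak within 1 kb and peaks of 2285 and 1467 in METTL3-KO and 1064 in METTL14-KO replicate 1. Its log2 change of 2.85 ± 1.05 had a limma adjusted p of 0.040, which was no longer past the threshold without any single one of 7 of the libraries or in the 3 kb window (adjusted p 0.17).

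Some subunits exist as pairs of a widely used and a tissue-limited isoform or copy, and 8 such pairs were examined, together with ATP5MG and its copy. COX4I1, COX6A1, COX7A2, COX7B and COX8A were marked in NTC cells, while COX4I2, COX6A2, COX7A1, COX7B2 and COX8C, whose known expression is in lung, muscle, testis or a few other tissues, had no peak in any library. COX6A1 had 4151, 4658 and 4508 in NTC, 1188 and 886 in METTL3-KO, 983 and 0 in METTL14-KO, and 0 in WTAP-KO. COX7A2 had 16224, 13501 and 16427 in NTC, 5118 and 2495 in METTL3-KO, 535 and 442 in METTL14-KO, and 0 and 190 in WTAP-KO. The other pairs differed from this pattern. COX6B2, a testis isoform, was marked with 1294, 3001 and 1473 in NTC beside 12930 to 16044 at COX6B1. NDUFA4L2, the hypoxia-induced relative of NDUFA4, had a single peak of 643 in NTC replicate 2. UQCRHL, an intronless copy of UQCRH, had no peak in any library, and UQCRH had peaks in the 6 KO libraries alone. ATP5MGL, the copy of ATP5MG, had none either, and ATP5MG behaved as UQCRH did.

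The 18 members marked in KO libraries alone came from every complex. They were NDUFA9, NDUFAF2, NDUFAF5, NDUFAF7, NDUFB3, NDUFB6, NDUFB9 and NDUFC1 of complex I, SDHAF3 and SDHD of complex II, UQCRB, UQCRFS1 and UQCRH of complex III, COX7A2L of complex IV, and ATP5F1C, ATP5F1E, ATP5MG and ATP5PF of the ATP synthase. Of these, 8 had a peak in all 6 KO libraries, which is 8.42% of the members marked in any library, beside 4.71% of all such genes. METTL3-KO replicate 1 had the highest of the 6 KO signals at 17 of the 18. A protein-coding start on the opposite strand lay within 1 kb at 11 of the 18 (61.1%), beside 38.7% of the 62 members marked in all 3 NTC libraries. Peaks at these 11 cannot be assigned to either gene.

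The strongest of them exceeded any KO signal of the members marked in NTC. NDUFB6, an accessory subunit of the complex I membrane arm, had 21455 and 11891 in METTL3-KO, 6259 and 5273 in METTL14-KO, and 7609 and 7430 in WTAP-KO. ATP5MG, a membrane subunit at the dimer interface of the ATP synthase, had 20321 and 13044 in METTL3-KO, 9343 and 4018 in METTL14-KO, and 8148 and 9990 in WTAP-KO. ATP5PF, a peripheral stalk subunit, had 13786 and 10176 in METTL3-KO, 5618 and 5335 in METTL14-KO, and 3520 and 5421 in WTAP-KO. METTL3-KO was the highest group at all 3 genes, and for comparison the highest KO signal among the members marked in all 3 NTC libraries was the 10957 of ATP5PO. UQCRH, the hinge protein of complex III, had 9337 and 5045 in METTL3-KO, 4601 and 1868 in METTL14-KO, and 1648 and 1590 in WTAP-KO. SDHD had 4790 and 3146 in METTL3-KO, 1766 and 984 in METTL14-KO, and 0 and 500 in WTAP-KO. UQCRFS1, the iron-sulfur protein of complex III, had 2969 and 1011 in METTL3-KO, 2006 and 407 in METTL14-KO, and 0 in WTAP-KO. At these 3 genes too the METTL3-KO mean was the highest.

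The peaks of these 18 members were wide for KO libraries. The widest KO peak had a median of 1065 bp over the 18 (range 224 to 1814 bp), against 499 bp over the 46 members marked in all 3 NTC libraries that kept a KO peak. The median of their highest KO signal was 5090, against 1289 in those 46. The lists have an upper limit of 2000 bp, the widest NTC peak at a member marked in all 3 NTC libraries was 1990 bp, and in the top decile of NTC signal 29.2% of NTC peaks were 1800 bp or wider, beside 0.847% in the lower 5 deciles. The part of this width limit in the missing NTC peaks was not tested. An NTC peak lay within 3 kb of a start at 4 of the 18, and at NDUFB3 these peaks turned the sign of the log2 change to -0.18 (limma adjusted p 0.64).

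**Figure D4:**
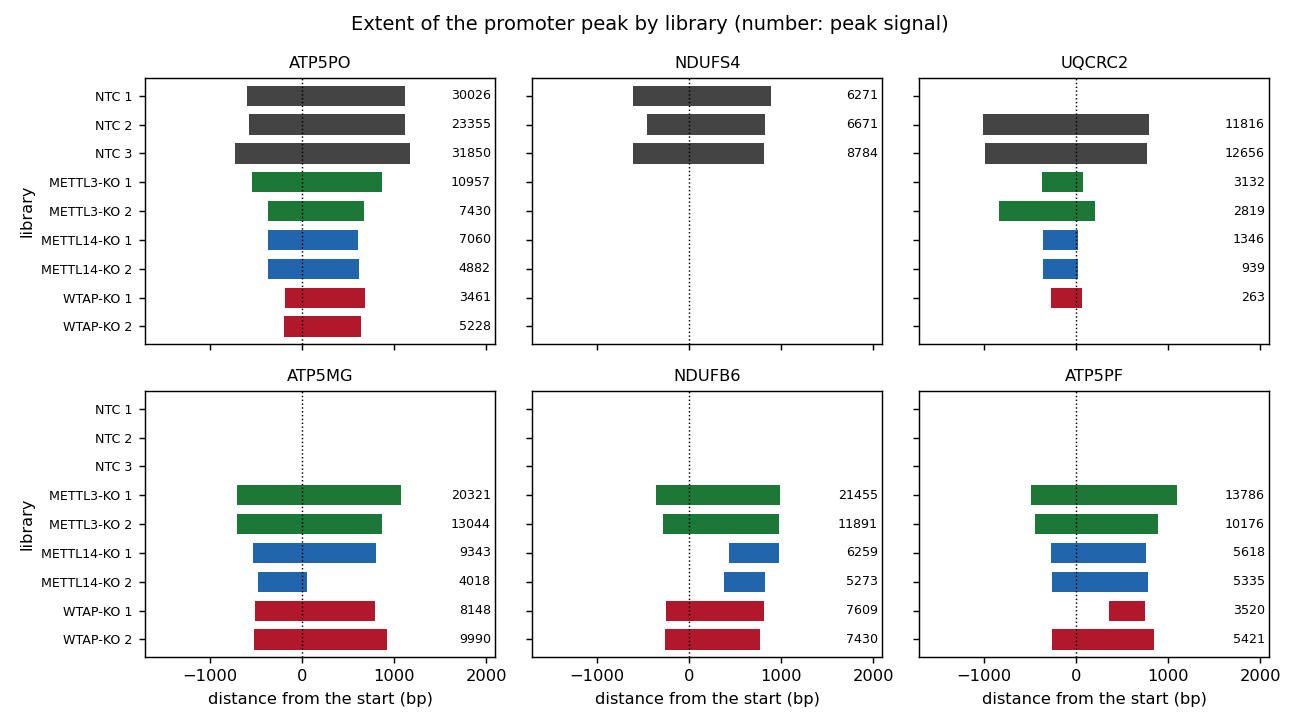
Bars show the extent of the promoter peak in each library along the gene, in bp from the annotated start (dotted line), with the peak signal at the right, for a member marked in all libraries (ATP5PO), in NTC alone (NDUFS4), in some NTC libraries (UQCRC2) and in KO alone (ATP5MG, NDUFB6, ATP5PF). Peaks of ATP5PO are 1694 to 1898 bp wide in NTC and 829 to 1419 bp in KO libraries, and the KO peaks of ATP5MG reach 1784 bp.

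The 15 members marked in 1 or 2 NTC libraries had some of the strongest NTC values and the largest errors. NDUFV3 had 19905 in NTC replicate 1, in a peak of 1968 bp, and none in the other NTC libraries, with 10692 and 6961 in METTL3-KO, but 5 of its 7 peaks lay near another start, more than 1 kb from the main one. NDUFAF4, an assembly factor of complex I, had 12485 and 19692 in NTC replicates 1 and 3. ATP5MC1, which encodes the ring subunit of the ATP synthase together with ATP5MC2 and ATP5MC3, had 8966 in NTC replicate 1 and 383 to 2416 in the 6 KO libraries. Of these 15, limma tested 13 and called NDUFS6 alone, lower, for the KO groups together, with an adjusted p of 0.037. NDUFS6 had no KO peak and entered the fit through NTC alone.

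The share of promoters that kept a peak was set beside genes of equal NTC signal. Of the 62 members marked in all 3 NTC libraries, 46 (74.2%) had a peak in at least 1 METTL3-KO library, 28 (45.2%) in METTL14-KO and 14 (22.6%) in WTAP-KO. Over the 8495 genes marked in all 3 NTC libraries these shares were 53.7%, 26.7% and 15.1%. The members had higher NTC signals than most, with 40 of the 62 in the upper 5 deciles. Genes of the same deciles kept a peak in 63.3%, 32.7% and 19.0% of cases. These equal-signal shares lay inside the exact 95% binomial intervals of the members for METTL3-KO (61.5% to 84.5%), METTL14-KO (32.5% to 58.3%) and WTAP-KO (12.9% to 35.0%), which cover counting error over the 62 genes only. With a peak required in both libraries of a group, the members' shares were 61.3%, 19.4% and 12.9%, and without METTL14-KO replicate 1 the METTL14-KO share was 22.6%. No all-gene or equal-signal shares are given for these settings.

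**Figure D5:**
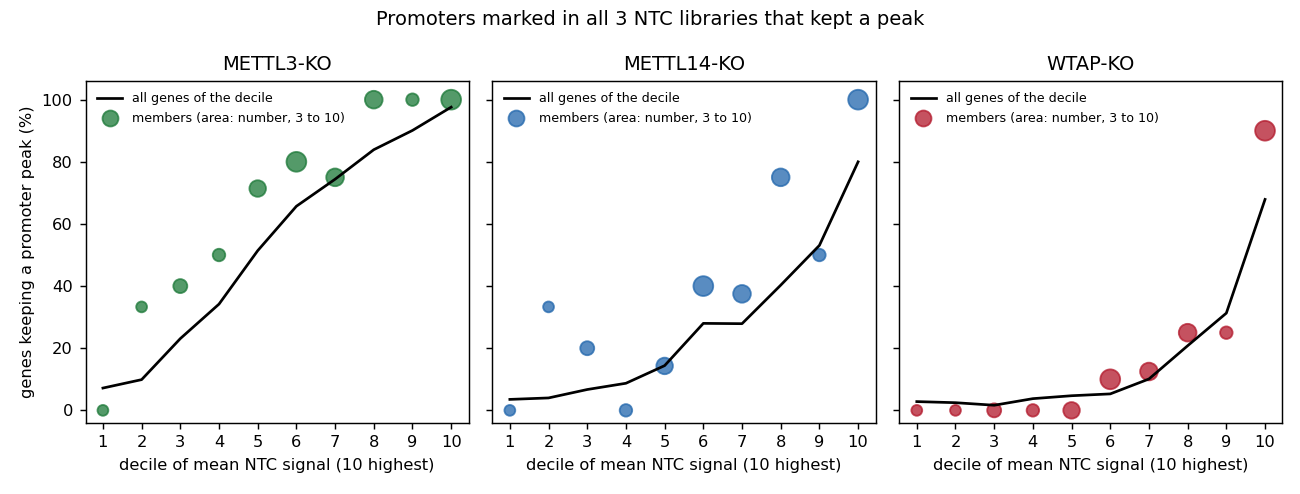
For each KO group, the line gives the percentage of all genes marked in all 3 NTC libraries that kept a promoter peak, by decile of mean NTC signal, and circles the same percentage for the members of that decile, with area by their number (3 to 10). In METTL3-KO the circles run from 0% in decile 1 to 100% in decile 10, and in WTAP-KO 9 of 10 members of decile 10 kept a peak beside 67.9% of its genes.

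The KO groups differed from each other at many members. limma called 38 of the 92 members tested higher in METTL3-KO than in METTL14-KO and WTAP-KO averaged, with 29.5% of all genes called higher, and called none lower, nor was any lower at an unadjusted p under 0.05. A member was called lower under 1 alternative, centring on genes marked in all 9 libraries. The called log2 differences ran from 1.18 at COX6B1 to 5.43 at UQCR10, leaving aside NDUFAF2, a complex I assembly factor with 3457 and 872 in METTL3-KO and no other peak, which passed the filter through METTL3-KO alone and so had to differ. ATP5F1C and NDUFAF5, also called, had a further peak in a single METTL14-KO library and reached the filter only with their METTL3-KO peaks. The filter thus favoured a higher METTL3-KO value at these genes as well. Of the 38, 25 were marked in all 3 NTC libraries, 12 in KO libraries alone, and 1, UQCR10, in 2 NTC libraries. Without METTL3-KO replicate 1, 17 members were called, and the share of all genes is not given for that fit. NDUFB7 gave the clearest difference among members marked in NTC, with 930 and 1342 in METTL3-KO and 0 in the 4 other KO libraries (log2 difference 5.25 ± 0.25 (SE), limma adjusted p 3.1e-05). In all 46 members that were marked in all 3 NTC libraries and kept a KO peak, the METTL3-KO mean was the highest of the 3 KO means, as in 97.5% of the 4602 such genes.

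Assembly factors, a further complex III subunit, cytochrome c and the regulators of the pathway gave a similar picture. Of 59 such genes that are not members, limma tested 58 and called 39 lower and 12 higher for the KO groups together, with a median log2 change of -5.42, beside -4.85 over the tested members and -5.30 over all genes. Of all tested genes, 73.0% were called lower and 14.3% higher. The 12 higher genes had no NTC peak and entered the fit only through KO libraries, so that the filter set their direction. The same held in reverse for lower genes without a KO peak, such as CYCS and NRF1. All 9 genes of complex III and cytochrome c and their assembly were lower. Of 26 complex IV assembly genes, 17 were lower and 7 higher. Of 14 regulators, 7 were lower and 4 higher. The regulators included GABPA, the ETS factor that shares its promoter with ATP5PF and so has the same peaks. Of these genes, 6 were marked in all 9 libraries: UQCC1 and UQCC2 (complex III assembly), COA4 (complex IV), FOXRED1 and TIMMDC1 (complex I) and TMEM70 (ATP synthase). The first 5 had log2 changes from -3.60 to -2.35 and were called lower. TMEM70 had a mean of 3772 in NTC and 5387 over the KO libraries, with a log2 change of 0.14 and a limma adjusted p of 0.78.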

How the data were processed

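H3K4me3 CUT&RUN was measured in 9 HEL cell libraries, grouped and numbered by their labels. The authors aligned paired-end reads with Bowtie to hg19 and to the yeast spike-in genome (sacCer3), calibrated by spike-in, removed duplicates with Picard and called peaks per library. Tool versions are not given in the sources used here. The authors deposited, for each library, peak positions and a signal in calibrated coverage units, with no header and no counts. The lists do not say where counting begins, and starts were taken to count from 0.

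Each protein-coding nuclear gene (GENCODE on hg19) took the largest signal among peaks within 1 kb of its starts. limma 3.58.1 (R 4.3.3, trend option, Benjamini-Hochberg adjustment at 0.05) was fitted to log2(signal + 30.1), the pseudocount being the smallest promoter signal, over 12037 genes, each marked in 2 libraries or more, in a single model of the 9 libraries and 4 groups. The KO groups together were the mean of the 3 KO group means against NTC. The log2 scale understates the change of weak promoters. This step was also tested on simulated data. A kept promoter was one marked in all 3 NTC libraries and in at least 1 library of the KO group, set beside all genes of the same decile of NTC signal.

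The rule for the members uses symbols and no measured value, but the members, their classes and the lists were proposed with earlier results of these data known. Genes named were those marked in no library, in all 9, or in KO libraries alone, the 10 of highest NTC signal, the 5 with the largest and the 5 with the smallest fall, core subunits and isoform pairs. A further few (NDUFAF2, NDUFAF4, NDUFB7, NDUFS6, NDUFV3, ATP5MC1 and UQCR10) and the promoters printed were chosen after their values were seen. Alternatives were the pseudocount, the gene filter, centring, the sum of peaks, a 3 kb window, the outermost start, a peak threshold, both KO libraries, the compared groups alone, the replicate block and leaving out each library. A filter for genes marked in all 9 libraries and leaving out read-through genes were chosen after seeing the data. The values of 1 member and of 1 marker gene, though counted, are not reported here. Promoter sequence was read from the GRCh37 (hg19) genome. Tables and plots were made with pandas 2.3.3, numpy 2.4.6, scipy 1.17.1 and matplotlib 3.10.9 in Python 3.11.15.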

Additional observations from a re-analysis of the deposited data

Results flagged for a closer look

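The promoter signal of the members differed between knockout groups under the same contrast: limma called 38 members higher in METTL3-KO than in METTL14-KO and WTAP-KO averaged, by a test of the difference itself. The 38 include NDUFAF2, ATP5F1C and NDUFAF5, which passed the filter only with their METTL3-KO peaks. The count was 17 without METTL3-KO replicate 1. The calibrated signal was also higher in METTL3-KO over the genome, where 29.5% of genes were called higher, and the part of library scale in the difference at the members was not tested.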

How the results depend on the processing

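Counts of members called in each KO group against NTC stayed within 1.5 times the main count (63 in METTL3-KO, 72 in METTL14-KO, 71 in WTAP-KO, 79 for the KO groups together) under the alternatives tried, except for the filter on genes marked in all 9 libraries, which leaves 7 members to test and called 7 in each, all lower. No shares of all genes are given under the alternatives, so that member counts and shares there are not set beside the genome. The counts add both directions, and the lower calls alone moved more. After centring they were 33, 36, 49 and 46 in the same order, beside 46, 61, 62 and 63 in the main fit. The higher calls were 18, 13, 12 and 18, beside 17, 11, 9 and 16. The count of members differing between METTL3-KO and the other KO groups (38) was 20 after centring, 8 with only peaks that reached the median NTC signal, and 7 with the filter on genes marked in all 9, and it ranged from 17 to 48 when single libraries were left out. With the replicate block it was 23. The replicate numbers did not pair the libraries (12 pairs of same-numbered libraries, r from -0.0578 to 0.095), and the block gave 62, 70, 75 and 79 members for the other counts. Leaving out single libraries gave 56 to 74, 69 to 73, 70 to 76 and 76 to 82. The share keeping a peak was 61.3% (METTL3-KO), 19.4% (METTL14-KO) and 12.9% (WTAP-KO) with peaks in both KO libraries required, and 30.8%, 9.62% and 1.92% with only peaks that reached that median. It ranged from 64.5% to 76.1%, 22.6% to 46.3% and 17.7% to 23.9% when single libraries were left out. Leaving out read-through genes gave 73.3%, 45.0% and 23.3%. Log2 changes for the KO groups together turned sign at ATP5PO (0.65), COX6B1 (0.25), NDUFS5 (0.00), NDUFS8 (0.24) and UQCRC2 (0.69) after centring, which raised the median of all genes by 1.86. All of these but UQCRC2 are marked in all 9 libraries. Centring holds the median of such genes equal, so that their centred values are relative to it. ATP5IF1 (-0.01, limma adjusted p 0.97) and NDUFB5 (-0.42, 0.43), of the same set, were no longer called. Log2 changes also turned sign at NDUFB3 (-0.18) in the 3 kb window, and at UQCRC2 without NTC replicate 2 (0.16), without NTC replicate 3 (0.20) and with the block (0.20), while UQCRC2 without NTC replicate 1 gave -4.16. For NDUFB3 and UQCRC2 the cause was not tested. The peak lists hold no depth, a missing peak is not a measured 0, and spike-in scale and group cannot be told apart where each library has 1 scale.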

Other observations

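The mitochondrial genome, which encodes the remaining respiratory subunits, carried 2 listed peaks in all: positions 14 to 280 in NTC replicate 2, with a signal of 1454, and positions 15014 to 16552 in WTAP-KO replicate 1, with a signal of 10900. No other library listed a peak there. What these listed peaks stand for was not tested, and they are not read here as H3K4me3 at a respiratory gene.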
